A study of Mus musculus with 16 samples.

Results

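The B cell genes described here are 32 genes of B cell identity and B cell receptor signalling, taken by gene name from a table of 54532 genes measured in bulk RNA of mouse inguinal white adipose tissue (iWAT). All 32 were found. Their levels stood apart in 4 of the 16 libraries, all of them from control mice: Has2_WT1, Has2_WT2, PH20_WT1 and PH20_WT3. For 26 of the 32 genes these were the 4 highest libraries, and the summed FPKM of the 31 genes other than Ighm was 287 to 772 there and 15.7 to 58.1 in the other 12 libraries.

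RNA was sequenced in 16 libraries, 4 in each of 4 groups of male mice that were 8 to 10 weeks old at the start. Has2_TG mice carried Apn-rtTA and TRE-Has2, and PH20_TG mice carried Apn-rtTA and TRE-PH20, which encodes the hyaluronidase PH20 from the gene Spam1. Has2_WT and PH20_WT were the littermate controls of each line and carried Apn-rtTA alone. The rtTA protein switches on TRE promoters when doxycycline is present, and it is made from the adiponectin promoter, so that the transgenes are expressed in adipocytes. The mice of all 4 groups, controls included, ate chow with 200 mg/kg doxycycline for 5 days, and the study asked how more or less hyaluronan alters gene expression in iWAT.

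B cells are lymphocytes that recognise antigen through a membrane-bound immunoglobulin, the B cell receptor. Naive follicular B cells carry IgM and IgD, whose heavy chains come from the constant regions Ighm and Ighd, together with the signalling chains Cd79a and Cd79b. Engagement of the receptor activates kinases such as Btk and adaptors such as Blnk, is raised by Cr2 and held back by Cd22, and leads to survival, proliferation or antibody secretion. Pax5 maintains the identity of the lineage, and Cxcr5 guides the cells to follicles of lymph nodes, one of which is embedded in the mouse inguinal fat pad.

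The 32 genes lie on 16 chromosomes of GRCm38. Ighm (chr12:113418558-113422730, minus strand) and Ighd (chr12:113406604-113416324, minus strand) are neighbouring constant-region genes, Cd79a is on chromosome 7 from 24897381 to 24902197 and Cd79b on chromosome 11 from 106311341 to 106314762. Exon bases of 8 of the genes (Cd22, Cd72, Cd37, Cxcr5, Cd180, Pax5, Pou2f2 and Ciita) are shared with another annotated gene, on the opposite strand except for Pou2f2, and their reads are to that extent uncertain. Windows of up to 250 bases upstream of a transcript start were taken from RefSeq (GRCm38.p6) for 24 of the 32 genes and searched on both strands for 3 motifs of B cell transcription factors. The octamer ATTTGCAT, which Pou2f2 recognises, was in the windows of Blnk and Vpreb3, and in 1.60% of the windows of all genes. The EBF1 core CCCNNGGGA was found upstream of Cd22, as 2 overlapping matches, and in 5.60% of all windows. The core GAGGAAGT of Spi1 and Spib sites was found upstream of Btla, Cd37, Cd72 and Fcrl1, and in 2.44% of all windows. The matches of Blnk, Vpreb3, Cd22, Btla and Cd37 lay before the RefSeq start used but inside the annotated span of the gene. A match describes letters only, and binding was not measured. The sequences below show the defining gene Cd79a, whose window (chr7:24897247-24897380, plus strand, the bases before its first exon) held none of the 3 motifs, and 3 windows with a motif in capitals. These are Vpreb3 (chr10:75948050-75948299, plus strand), with the octamer, and Fcrl1 (chr3:87376137-87376386, plus strand) and Cd72 (chr4:43454629-43454876, minus strand), each with ACTTCCTC, the reverse complement of GAGGAAGT. All are written 5′ to 3′ on the strand of the gene.
Cd79a: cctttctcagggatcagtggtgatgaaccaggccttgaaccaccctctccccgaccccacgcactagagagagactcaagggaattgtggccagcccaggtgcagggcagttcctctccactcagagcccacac
Vpreb3: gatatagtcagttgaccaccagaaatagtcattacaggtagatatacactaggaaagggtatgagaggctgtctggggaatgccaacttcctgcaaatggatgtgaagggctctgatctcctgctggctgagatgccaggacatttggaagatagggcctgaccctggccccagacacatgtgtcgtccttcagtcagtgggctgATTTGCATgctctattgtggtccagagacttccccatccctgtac
Fcrl1: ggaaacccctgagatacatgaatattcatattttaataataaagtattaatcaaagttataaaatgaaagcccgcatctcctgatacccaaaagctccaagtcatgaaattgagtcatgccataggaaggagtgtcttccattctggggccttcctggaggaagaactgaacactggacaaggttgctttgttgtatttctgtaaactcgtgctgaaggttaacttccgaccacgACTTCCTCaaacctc
Cd72: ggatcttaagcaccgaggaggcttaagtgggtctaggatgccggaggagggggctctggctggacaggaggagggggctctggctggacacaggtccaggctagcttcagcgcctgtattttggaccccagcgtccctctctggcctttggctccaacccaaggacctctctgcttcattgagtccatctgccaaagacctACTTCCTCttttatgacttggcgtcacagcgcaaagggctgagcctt
The octamer of Vpreb3 lies 38 to 45 bases before the start, the motif of Fcrl1 8 to 15 bases and that of Cd72 42 to 49 bases.

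Libraries held 14421692 to 26751729 reads on genes, and a level is given as FPKM, the fragments of a gene scaled to its length and to the size of the library. A gene listed at 0 had 0 reads, which can occur by chance where up to 3 reads would be expected, and this floor covers counting error only. The transgene served as a check of the labels. Has2 was 0.417 to 0.806 FPKM in Has2_WT and 1.86 to 3.24 FPKM in Has2_TG, without overlap. Spam1 had 6, 12 and 5 reads in PH20_TG2, PH20_TG3 and PH20_TG4, and 0 reads in the library labelled PH20_TG1 and in the other 12 libraries. Spam1 was therefore not detectable in the library labelled PH20_TG1 at this depth, where 3 reads are 0.0790 FPKM. Has2 in the 4 PH20_TG libraries was 3.32, 0.380, 0.0990 and 3.26 FPKM, so that 2 of them exceeded the highest Has2_TG library. The number of B cell genes lower in PH20_TG is also given without this library, and the other PH20 values include it.

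Of the antigen receptor genes, Cd79a, Cd79b and Ighd were at least 13.8-fold higher in the lowest of the 4 control libraries than in the highest of the other 12, while this ratio was 1.25 for Vpreb3 and 0.772 for Ighm. Values are given in the order of replicates 1 to 4 of each group. Cd79a, a signalling chain of the receptor, was at 93.2, 93.7, 0.849 and 0.755 FPKM in Has2_WT and 0.545, 1.07, 0.990 and 0.263 FPKM in Has2_TG. Its levels were 123, 2.14, 50.6 and 1.83 FPKM in PH20_WT and 0.561, 1.10, 0.905 and 0.915 FPKM in PH20_TG. In each control group 2 libraries were high and 2 were close to the transgenic ones. Has2_WT3 and Has2_WT4 lay among the Has2_TG libraries, whereas PH20_WT2 and PH20_WT4 were just above those of PH20_TG. Mean Cd79a was 47.1 ± 53.5 FPKM (SD, n = 4) in Has2_WT and 0.718 ± 0.382 (SD, n = 4) in Has2_TG, so that the SD of the controls exceeded their mean. In the PH20 study it was 44.3 ± 57.0 (SD, n = 4) in PH20_WT and 0.871 ± 0.226 (SD, n = 4) in PH20_TG. The log2 difference on the scale of log2(FPKM + 0.1), transgenic minus control, was -3.63 (SE 1.57, limma adjusted p = 0.480) in the Has2 study and -3.75 (SE 1.28, limma adjusted p = 0.702) in the PH20 study. Both passed the unadjusted p of 0.05 at which a gene is called here, and neither passed after adjustment. In bulk tissue, fewer B cells and less RNA per B cell cannot be told apart.

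Cd79b, the partner of Cd79a, was at 63.6, 59.3, 0.659 and 1.46 FPKM in Has2_WT and 0.665, 1.35, 0.896 and 1.04 FPKM in Has2_TG. In PH20_WT it was at 78.9, 1.24, 28.0 and 0.799 FPKM, and in PH20_TG at 0.367, 0.562, 0.628 and 1.62 FPKM. The same 4 control libraries were high, and both pairs of groups overlapped. The log2 difference of Cd79b was -2.95 (SE 1.35, limma adjusted p = 0.513) in the Has2 study and -3.19 (SE 1.37, limma adjusted p = 0.731) in the PH20 study. Ighd, the constant region of IgD, was at 165, 91.8, 1.12 and 1.41 FPKM in Has2_WT and 1.59, 0.951, 1.86 and 2.32 FPKM in Has2_TG. Its values in PH20_WT were 142, 2.71, 50.9 and 3.68 FPKM, and those in PH20_TG were 2.03, 1.56, 0.915 and 2.33 FPKM. Ighd was thus above every PH20_TG library in all 4 PH20_WT libraries, but not in Has2_WT. The log2 difference of Ighd was -2.92 (SE 1.51, limma adjusted p = 0.579) in the Has2 study and -3.28 (SE 1.18, limma adjusted p = 0.702) in the PH20 study.

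Ighm, the constant region of IgM, was the least variable of the 32 genes. It was at 254, 222, 57.7 and 124 FPKM in Has2_WT and 88.5, 102, 201 and 141 FPKM in Has2_TG. In PH20_WT it was at 277, 79.7, 155 and 76.8 FPKM and in PH20_TG at 116, 140, 66.1 and 87.7 FPKM. Every library expressed Ighm at 57.7 FPKM or more, the highest library exceeded the lowest 4.80-fold, and Has2_TG3 was above PH20_WT3. The log2 difference was -0.16 (SE 0.45, limma adjusted p = 0.941) in the Has2 study and -0.37 (SE 0.43, limma adjusted p = 0.858) in the PH20 study. Relative to its companions, Ighm stood out in the 12 libraries with low B cell genes: per unit length, Ighm was 2.26 to 3.07 times Cd79a in the 4 control libraries and 37.3 to 537 times Cd79a in the other 12. The ratio of Ighd to Ighm was 0.327 to 0.648 in the 4 libraries and 0.00922 to 0.0479 in the other 12. For Igkc, the constant region of the kappa light chain, the ratio to Ighm was 0.982 to 1.28 and 0.0234 to 0.751. Vpreb3, which takes part in receptor assembly, was low throughout and under the minimum of reads for a test. It was highest in PH20_WT1, at 6.25 FPKM, and at 0 reads in 7 libraries.

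**Figure D1:**
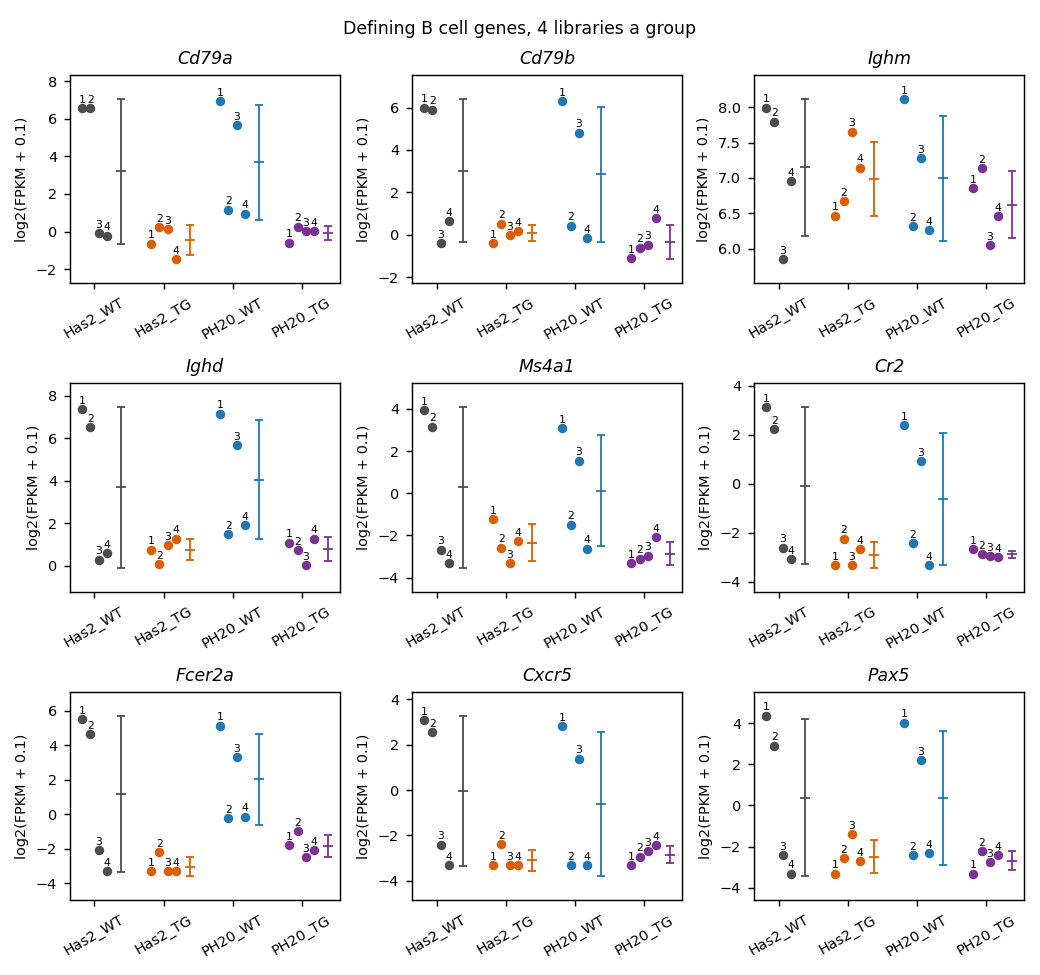
Level of Cd79a, Cd79b, Ighm, Ighd, Ms4a1, Cr2, Fcer2a, Cxcr5 and Pax5, as log2(FPKM + 0.1), in each of the 16 libraries. Points are numbered by replicate, and the mean ± SD (n = 4) of these log2 values is drawn beside each group. In 8 of the 9 panels, replicates 1 and 2 of Has2_WT and 1 and 3 of PH20_WT stand apart from the other 12 libraries, while Ighm ranges from 57.7 to 277 FPKM without such a gap.

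The co-receptors and surface modulators followed Cd79a. Ms4a1, the B cell surface protein targeted by rituximab, was at 15.3, 8.81, 0.0571 and 0 FPKM in Has2_WT and 0.327, 0.0682, 0 and 0.108 FPKM in Has2_TG. Its levels in PH20_WT were 8.28, 0.257, 2.83 and 0.0616 FPKM and in PH20_TG 0, 0.0163, 0.0291 and 0.136 FPKM. Outside the 4 control libraries Ms4a1 was at most 0.327 FPKM. Ms4a1 had a log2 difference of -2.62 (SE 1.58, limma adjusted p = 0.648) in the Has2 study and -2.99 (SE 1.15, limma adjusted p = 0.703) in the PH20 study. Cr2, a complement receptor of B cells, was at 8.61, 4.56, 0.0653 and 0.0194 FPKM in Has2_WT and 0, 0.111, 0 and 0.0590 FPKM in Has2_TG. It was at 5.10, 0.0862, 1.78 and 0 FPKM in PH20_WT and 0.0575, 0.0372, 0.0296 and 0.0260 FPKM in PH20_TG. In both studies the low control libraries overlapped the transgenic ones, and the log2 differences of Cr2 were -2.80 (SE 1.34, limma adjusted p = 0.546) and -2.25 (SE 1.17, limma adjusted p = 0.731).

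Fcer2a, the low-affinity IgE receptor of follicular B cells, was at 44.9, 24.8, 0.133 and 0 FPKM in Has2_WT and 0, 0.117, 0 and 0 FPKM in Has2_TG. Its PH20_WT values of 34.9, 0.740, 9.84 and 0.801 FPKM were all above the PH20_TG values of 0.189, 0.406, 0.0775 and 0.136 FPKM. The log2 difference of Fcer2a was -4.22 (SE 1.83, limma adjusted p = 0.486) in the Has2 study and -3.85 (SE 1.14, limma adjusted p = 0.664) in the PH20 study, where its p was the smallest of the B cell genes. Fcmr, the Fc receptor for IgM, was at 53.9, 33.5, 0.170 and 0.332 FPKM in Has2_WT and 0, 0.0694, 0 and 0.276 FPKM in Has2_TG. In PH20_WT Fcmr was at 44.7, 0, 16.4 and 0.476 FPKM and in PH20_TG at 1.14, 0.348, 0.276 and 0.323 FPKM. PH20_WT2 had no read of Fcmr, below every PH20_TG library. The log2 difference of Fcmr was -4.59 (SE 1.66, limma adjusted p = 0.377) in the Has2 study, the most negative of the B cell genes there, and -2.23 (SE 1.74, limma adjusted p = 0.800) in the PH20 study. Of the other 6 genes of this role, the inhibitory lectin Cd22 was called lower in the Has2 study (-3.91, limma adjusted p = 0.480) and the inhibitory receptor Btla in the PH20 study (-2.69, limma adjusted p = 0.702). Siglecg, Cd72, Fcrl1 and the tetraspanin Cd37 were called in neither. Cd37 kept 2.98 FPKM or more in every library. Fcrl1 had 3 reads or fewer in each PH20_TG library, so its fitted difference there depends on the pseudocount and is not given. Differences that are given for other genes with few transgenic reads depend on the pseudocount as well. Examples are Fcer2a, Fcmr and Cxcr5 in Has2_TG and Blk in PH20_TG.

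**Figure D2:**
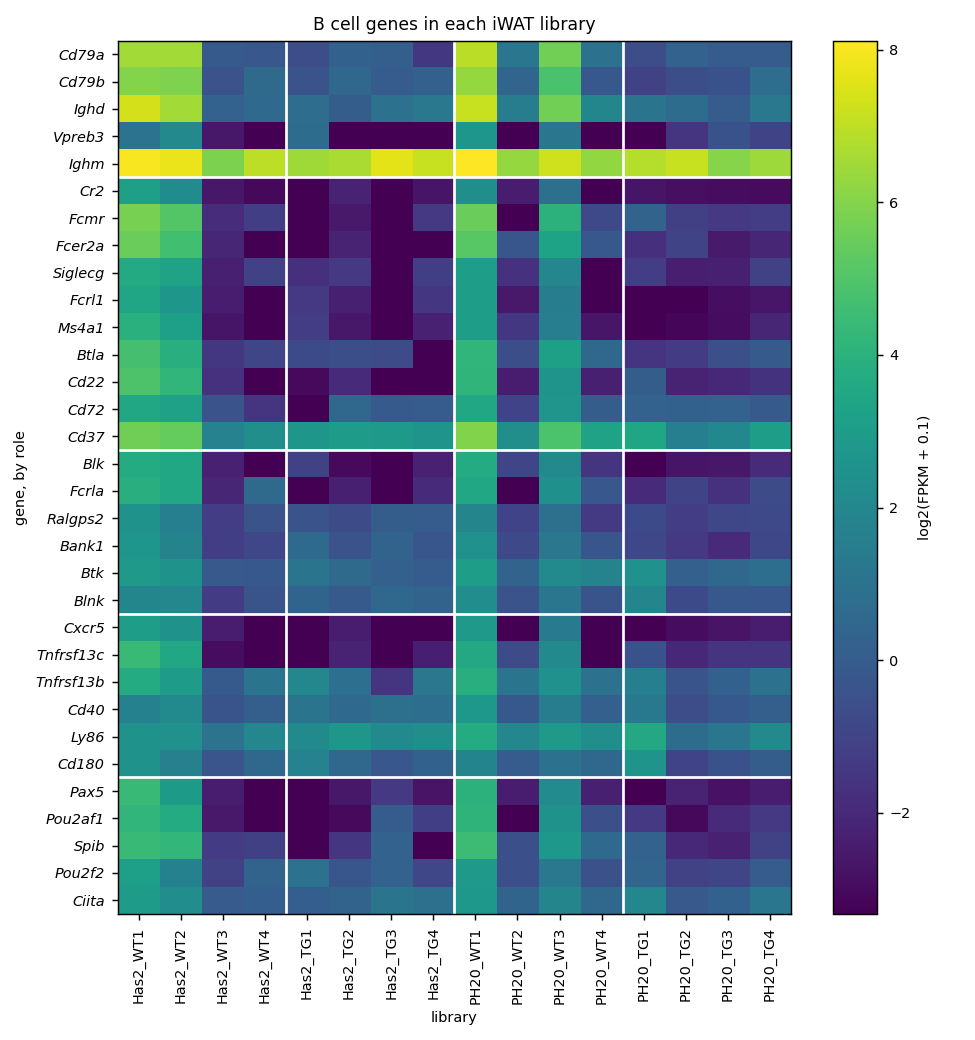
Level of the 32 B cell genes, as log2(FPKM + 0.1), in the 16 libraries (columns, by group and replicate), with genes ordered by role. The columns Has2_WT1, Has2_WT2, PH20_WT1 and PH20_WT3 hold the highest values for 26 of the 32 genes, and Ighm, Ly86 and Ciita are among the genes with signal in all 16 columns.

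Kinases and adaptors were less uniform. Blk, a Src-family kinase of B cells, was at 13.2, 11.5, 0.109 and 0 FPKM in Has2_WT and 0.382, 0.0223, 0 and 0.106 FPKM in Has2_TG. Its levels in PH20_WT, 12.9, 0.424, 4.30 and 0.235 FPKM, were all above those in PH20_TG, 0, 0.0559, 0.0666 and 0.156 FPKM. Blk had a log2 difference of -2.84 (SE 1.57, limma adjusted p = 0.610) in the Has2 study and -3.47 (SE 1.09, limma adjusted p = 0.666) in the PH20 study. Fcrla, an intracellular Fc receptor-like protein, was at 14.5, 11.5, 0.135 and 1.47 FPKM in Has2_WT and 0, 0.104, 0 and 0.164 FPKM in Has2_TG. It was at 11.3, 0, 5.20 and 0.764 FPKM in PH20_WT and 0.167, 0.403, 0.206 and 0.523 FPKM in PH20_TG. Has2_WT4 was the only low control library clearly above the Has2_TG range for Fcrla, and PH20_WT2 had no read. Fcrla had the smallest p of the B cell genes in the Has2 study (log2 difference -4.21, SE 1.18, limma adjusted p = 0.212, and Has2_WT higher than every Has2_TG library in 3 of 4 libraries), and in the PH20 study it was -1.92 (SE 1.30, limma adjusted p = 0.767).

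Bank1, a scaffold that links the receptor to calcium release, was at 6.40, 3.36, 0.330 and 0.434 FPKM in Has2_WT and 1.42, 0.652, 1.13 and 0.722 FPKM in Has2_TG. In PH20_WT it was at 5.35, 0.484, 2.24 and 0.747 FPKM and in PH20_TG at 0.437, 0.269, 0.168 and 0.450 FPKM. The 4 Has2_TG libraries lay between the high and the low Has2_WT libraries, while the PH20 groups did not overlap. Bank1 differed by -0.54 (SE 0.83, limma adjusted p = 0.880) in the Has2 study and by -1.94 (SE 0.67, limma adjusted p = 0.702) in the PH20 study. Btk, the kinase that activates phospholipase C, Blnk, its adaptor, and the exchange factor Ralgps2 were called in neither study. Btk and Blnk had a read in all 16 libraries, and the library labelled PH20_TG1 exceeded PH20_WT3 for both, with 5.39 against 4.25 FPKM for Btk and 3.57 against 2.17 FPKM for Blnk.

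Receptors for survival, help and homing held both the most and the least restricted genes. Cxcr5, the receptor for Cxcl13, was at 8.35, 5.77, 0.0884 and 0 FPKM in Has2_WT and 0, 0.0904, 0 and 0 FPKM in Has2_TG. It was at 6.99, 0, 2.51 and 0 FPKM in PH20_WT and 0, 0.0302, 0.0540 and 0.0843 FPKM in PH20_TG. The lowest of the 4 control libraries was 27.8-fold above the highest of the other 12, the widest gap among the 32 genes. The log2 differences of Cxcr5 were -3.06 (SE 1.38, limma adjusted p = 0.507) and -2.24 (SE 1.37, limma adjusted p = 0.745). Ly86, the partner of Cd180 that is also expressed by myeloid cells, was at 5.67, 5.42, 1.93 and 3.78 FPKM in Has2_WT and 4.16, 6.60, 4.37 and 5.02 FPKM in Has2_TG. In the PH20 study Ly86 was at 12.8, 3.88, 7.23 and 4.98 FPKM in the controls and 12.0, 1.56, 2.18 and 4.37 FPKM in PH20_TG. Ly86 varied 8.20-fold over the 16 libraries and its groups overlapped in both studies. Its log2 difference was 0.35 (SE 0.33, limma adjusted p = 0.791) in the Has2 study, the only positive one among the tested B cell genes, and -0.81 (SE 0.61, limma adjusted p = 0.791) in the PH20 study. Cd180 itself was the 1 gene whose highest library was transgenic, with 5.95 FPKM in the library labelled PH20_TG1 and 5.74 FPKM in Has2_WT1. The BAFF receptor Tnfrsf13c, its relative Tnfrsf13b and the helper signal receptor Cd40 were highest in the 4 control libraries and called in neither study.

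The transcription regulators included Pax5, at 20.5, 7.45, 0.0865 and 0 FPKM in Has2_WT and 0, 0.0680, 0.278 and 0.0540 FPKM in Has2_TG. Pax5 was at 16.2, 0.0862, 4.46 and 0.1005 FPKM in PH20_WT and 0, 0.114, 0.0474 and 0.0872 FPKM in PH20_TG. Outside the 4 control libraries it was at most 0.278 FPKM. On the log2 scale Pax5 differed by -2.88 (SE 1.58, limma adjusted p = 0.608) in the Has2 study and -3.05 (SE 1.38, limma adjusted p = 0.731) in the PH20 study. Spib, an Ets factor needed for B cell receptor responses, was at 21.7, 19.0, 0.308 and 0.347 FPKM in Has2_WT and 0, 0.252, 1.12 and 0 FPKM in Has2_TG. It was at 23.04, 0.598, 6.74 and 1.40 FPKM in PH20_WT and 1.12, 0.140, 0.104 and 0.367 FPKM in PH20_TG. Has2_TG3 exceeded both low Has2_WT libraries, and the library labelled PH20_TG1 lay between PH20_WT2 and PH20_WT4. Spib differed by -3.53 (SE 1.47, limma adjusted p = 0.457) in the Has2 study and by -3.13 (SE 1.06, limma adjusted p = 0.702) in the PH20 study on the log2 scale.

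Ciita, the master regulator of MHC class II genes in B cells and other antigen-presenting cells, was at 7.95, 4.84, 0.883 and 0.978 FPKM in Has2_WT and 0.957, 1.14, 2.04 and 1.79 FPKM in Has2_TG. Its values were 6.82, 1.17, 3.58 and 1.38 FPKM in PH20_WT and 3.87, 0.801, 1.06 and 2.14 FPKM in PH20_TG. All 16 libraries expressed Ciita, within 9.92-fold, and the library labelled PH20_TG1 exceeded PH20_WT3. Ciita differed by -0.75 (SE 0.66, limma adjusted p = 0.768) and -0.59 (SE 0.63, limma adjusted p = 0.852). The octamer factor Pou2f2 and its coactivator Pou2af1 were highest in the 4 control libraries and not called.

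The highest library was Has2_WT1 for 19 genes, PH20_WT1 for 12 and the library labelled PH20_TG1 for Cd180. The exceptions to the shared 4 highest libraries were Ighm, Btk, Blnk, Cd180, Ly86 and Ciita. Of the 12593 genes tested over the 16 libraries, 462 had these 4 libraries highest. The lowest of the 4 was a median of 5.65-fold above the highest of the other 12, with 0.302-fold for Cd180, and at least 10-fold above it for 11 genes. By role the median was 13.8-fold for the antigen receptor, 9.38-fold for surface modulators, 4.83-fold for transcription regulators, 1.72-fold for kinases and adaptors and 1.29-fold for survival, help and homing receptors. All 32 genes were at 1 FPKM or more in each of the 4 libraries, and 4 to 14 were in each of the other 12. In at least 1 library, 17 of the genes had 0 reads. Among the 4, the median gene was 3.10-fold higher in Has2_WT1, 2.71-fold higher in PH20_WT1 and 1.83-fold higher in Has2_WT2 than in PH20_WT3.

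T cell genes and some genes of lymph node stroma were highest in the same 4 libraries. Of 20 T cell genes, all 20 had these 4 libraries highest, and their summed FPKM was 283 to 762 in the 4 and 7.44 to 33.0 in the other 12. The T cell receptor chains Cd3e and Cd3d were at 4.88 to 14.9 and 9.75 to 25.4 FPKM in the 4 libraries and at 0 to 0.654 and 0 to 3.22 FPKM in the other 12. Ccl21a, a chemokine of lymph node stroma whose annotated copies were summed, was at 14.2 to 58.7 FPKM in the 4 and 0 to 1.82 FPKM in the other 12. Glycam1, made by high endothelial venules, was at 3.68 to 13.6 and 0 to 0.0562 FPKM, and Cxcl13, the ligand of Cxcr5, at 11.3 to 31.3 and 0.819 to 11.1 FPKM. These 3 were among 5 stroma genes averaging 50 reads or more, and the other two, Pdpn and Lyve1, did not have these 4 libraries highest. The 12 lymph node stroma genes summed to 63.1 to 107 FPKM in the 4 and 4.82 to 49.96 FPKM in the other 12. Adipocyte genes summed to 9968 to 19952 FPKM and 14213 to 28207 FPKM, with Adipoq at 751 to 1603 FPKM in the 4 and 936 to 1748 FPKM in the other 12, so the labelled tissue was present in each library. The part of the lymph node genes in the differences between groups was not tested.

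**Figure D3:**
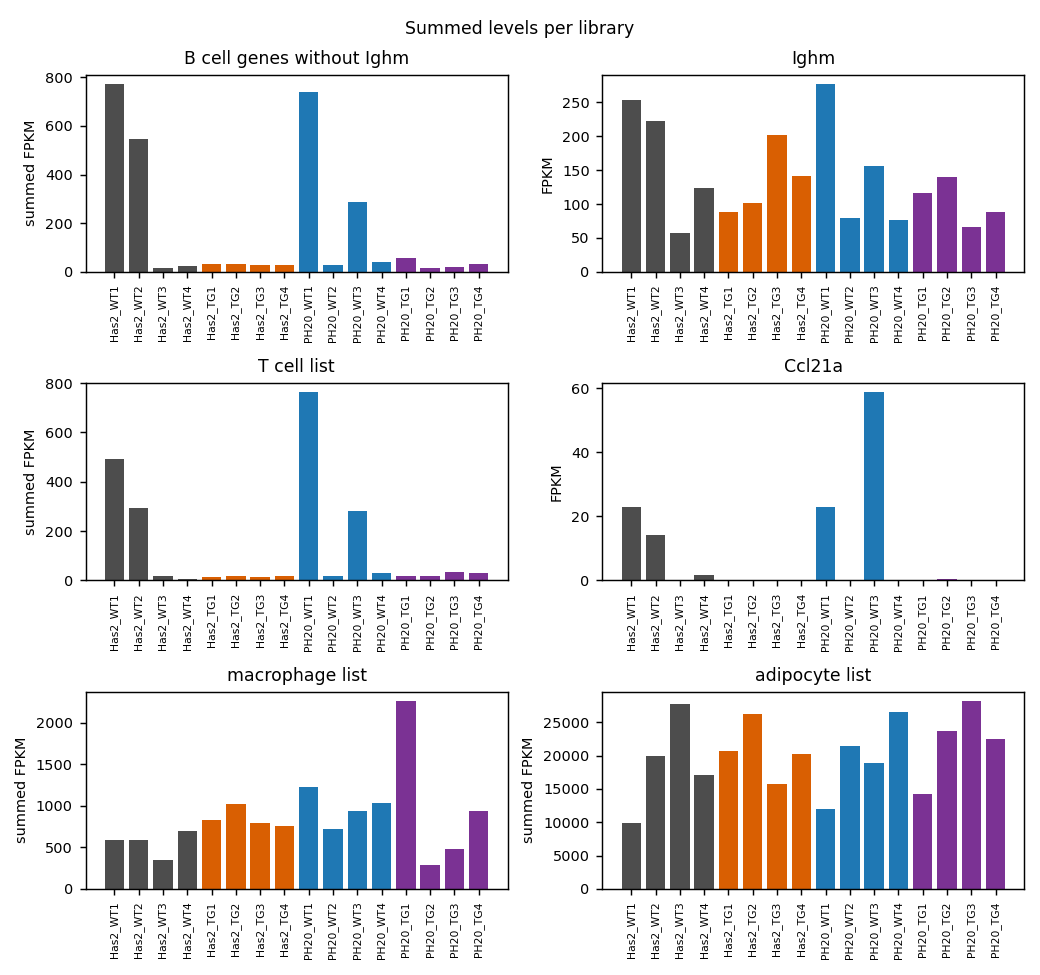
Summed FPKM of the 31 B cell genes other than Ighm, Ighm, the T cell list, Ccl21a, the macrophage list and the adipocyte list in each library (bars from 0, one per library). B cell genes, T cell genes and Ccl21a are high in the same 4 control libraries, and the macrophage list is highest in the library labelled PH20_TG1, at 2260 FPKM.

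Macrophage genes did not share this pattern, with 0 of 12 highest in the 4 libraries. Their sum was highest in the library labelled PH20_TG1, at 2260 FPKM, as was Adgre1, at 46.1 FPKM against 3.90 to 16.8 FPKM in the other 15. This is also the library in which Cd180 was highest, Ly86 second highest and Btk, Blnk and Ciita above PH20_WT3. The part of macrophage RNA in those values was not tested.

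Against its littermate controls, Has2_TG had 31 B cell genes averaging 50 reads or more, and 6 of them were lower at an unadjusted p under 0.05 (Cd22, Cd79a, Fcer2a, Fcmr, Fcrla and Spib), where 3.75% of the 12606 genes tested were lower. None was higher, where 6.25% of all genes were (limma, 0 at an unadjusted p under 0.05). After Benjamini-Hochberg adjustment over all genes 0 of the 31 passed, with a smallest limma adjusted p of 0.212. The median log2 difference was -2.62, against -0.03 over all genes, and 30 of the 31 were negative. For 0 of the 31 were the groups without overlap, against 2.11% of all genes. Medians were -2.94 for the antigen receptor (1 of 4 lower), -2.81 for surface modulators (3 of 10), -0.84 for kinases and adaptors (1 of 6), -0.93 for survival, help and homing receptors (0 of 6) and -2.39 for transcription regulators (1 of 5). For 18 of the 31 the Has2_TG mean was under 50 reads, so they entered the test through the controls and had to be lower. All 6 genes called lower were among these, with Has2_TG means of 1.5 to 20.25 reads, so nothing is read from their number against the 3.75% of all genes. The 18 genes also pull down the medians and add to the negative differences, so neither is read against all genes. The labels give separate samples but no litters or animal numbers, so p-values measure the spread between these samples only.

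In the PH20 study 31 of the B cell genes were tested and 9 were lower in PH20_TG (Bank1, Blk, Btla, Cd79a, Cd79b, Fcer2a, Ighd, Ms4a1 and Spib), where 3.39% of the 12532 genes were. None was higher, against 3.20% of all genes (limma, 0 at an unadjusted p under 0.05). Adjusted over all genes 0 passed, with a smallest limma adjusted p of 0.664. The median log2 difference was -1.94, against 0.01 over all genes, and 31 of 31 were negative. The groups did not overlap for Ighd, Cd79a, Fcer2a, Blk and Bank1, 5 of 31, against 2.33% of all genes. The role medians were -3.23 for the antigen receptor (3 of 4 lower), -2.24 for surface modulators (3 of 10), -1.47 for kinases and adaptors (2 of 6), -1.20 for survival, help and homing receptors (0 of 6) and -2.67 for transcription regulators (1 of 5). Here too 18 of the 31 had a transgenic mean under 50 reads. They included 8 of the 9 genes called lower, the exception being Ighd at a mean of 54.25 reads in PH20_TG, so nothing is read from the 9 against the 3.39% of all genes. The 5 genes without overlap were all among the 9, so their number is not read against the 2.33% either. The same holds for the medians and the number of negative differences, which the 18 genes pull down and add to. Without the library labelled PH20_TG1, 9 genes were lower, against 4.87% of all genes, of which Bank1, Blk, Cd79a, Fcer2a, Ighd and Spib were shared with the 9 above, and Cd180, Ly86 and Tnfrsf13b were added. That library held the highest PH20_TG level of each added gene. The shared genes other than Ighd passed the read minimum through the controls, so nothing is read from this number against the 4.87%.

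The high control libraries were picked as the highest for these genes, so leaving them out had to shrink or turn the differences, and the values that follow are a description. With Has2_WT1 and Has2_WT2 left out, a choice made after seeing the data, 1 of the 31 genes was lower in Has2_TG (Fcrla, log2 difference -1.996), against 3.53% of all genes. In that fit 5 were higher, Bank1 (1.11), Blnk (1.11), Cd37 (0.75), Cd40 (0.94) and Ly86 (0.85), against 5.78% of all genes, and the median of the 31 was 0.37. With PH20_WT1 and PH20_WT3 left out, 4 genes were lower in PH20_TG, against 2.09% of all genes: Blk (-1.38), Cd79a (-1.13), Fcer2a (-1.64) and Ighd (-0.92). None was higher at an unadjusted p under 0.05 by limma, against 2.51% of all genes, and the median was -0.03. After adjustment 0 passed in either fit, with smallest limma adjusted p-values of 0.380 and 0.999. The read minimum was applied before libraries were left out, so a gene could stay through reads of the libraries removed. Blk, for example, had 18 and 10 reads in PH20_WT2 and PH20_WT4 and 0 to 6 in PH20_TG. Nothing is therefore read from these counts against the shares of all genes.

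**Figure D4:**
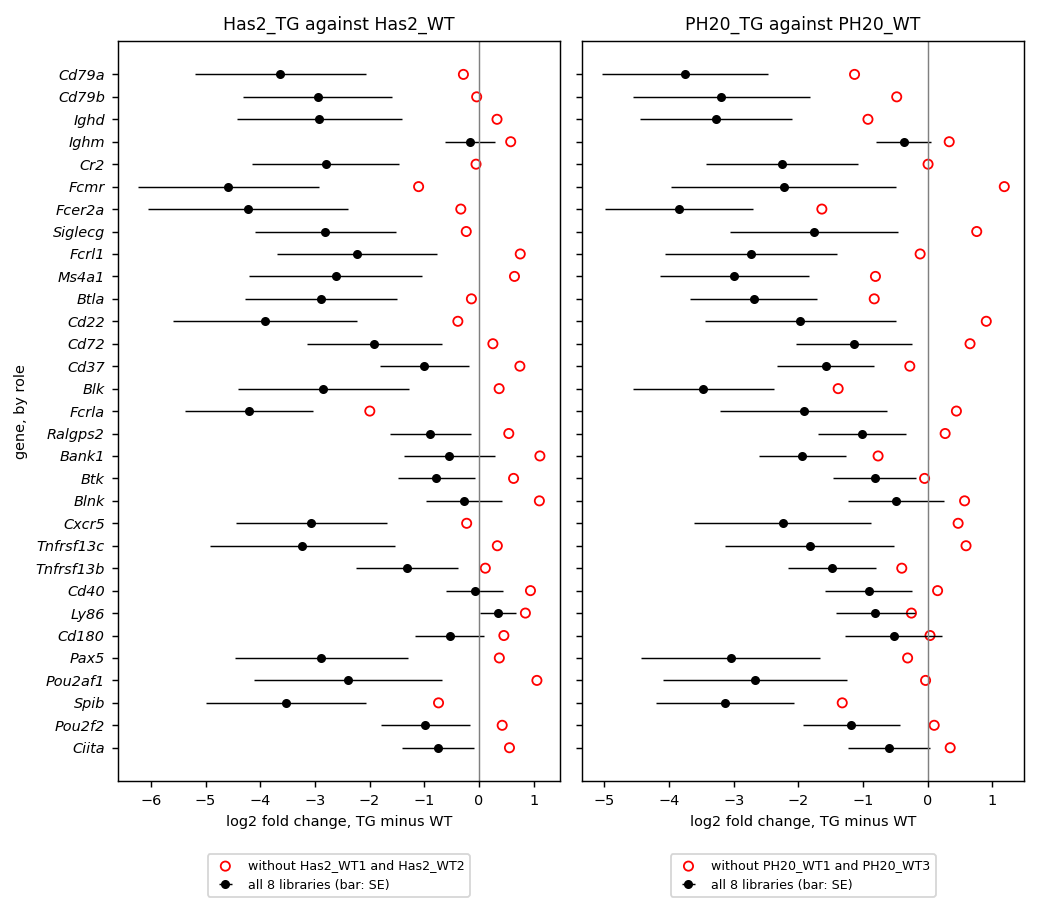
Log2 difference, transgenic minus control, of the 31 tested B cell genes in the Has2 study (left) and the PH20 study (right), with black points and SE bars from all 8 libraries and red circles without the 2 high control libraries. The black points have medians of -2.62 and -1.94, and the red circles have medians of 0.37 and -0.03.

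The difference between the studies, each against its own littermates, was not past the threshold for any tested B cell gene. Of the 31, 0 passed at an unadjusted p under 0.05 (limma on all 16 libraries), where 7.70% of the 12593 genes did, and the median difference was 0.13. The smallest p belonged to Ly86 (1.15, SE 0.75, limma adjusted p = 0.747), followed by Bank1 (1.40, SE 1.15, limma adjusted p = 0.808) and Fcrla (-2.29, SE 1.90, limma adjusted p = 0.812). Without the 4 high control libraries 2 of the 31, Bank1 (1.88) and Ighd, were higher in the Has2 than in the PH20 comparison. Of all genes 5.69% were called in either direction. Those libraries were picked as the highest for these genes, so nothing is read from the 2. Bank1 in Has2_TG was then compared with the Has2_WT values of 0.330 and 0.434 FPKM, and in PH20_TG with 0.484 and 0.747 FPKM.

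Further genes of the B cell receptor pathway had median log2 differences of -0.34 and -0.56 over the 22 tested in the Has2 and the PH20 study. Beside the counts of this and the other lists, 3.75% of all genes were lower and 6.25% higher in Has2_TG. In PH20_TG 3.39% were lower and 3.20% higher. As above, a gene with few transgenic reads entered through the controls and had to be lower, so nothing is read from the number of such genes. In Has2_TG, Malt1 was lower (-0.90) and the tetraspanin Cd81 higher (0.37). In PH20_TG, Nfatc1 (-0.49) and Rasgrp3 (-0.48) were lower. Of the B cell transcription regulators outside the 32, 0 of 12 were called in Has2_TG (median -0.73, with Tcf3 at -0.53 and Irf4 at 0.41), and 2 of 11 were lower in PH20_TG, Ikzf3 (-2.38) and Mef2c (-0.65), with a median of -0.65. Germinal centre genes, of which 4 were tested, had 2 higher in Has2_TG, Fas (0.46) and S1pr2 (0.81), and 0 called in PH20_TG, with medians of 0.20 and -0.07. Of 10 genes of early B lineage cells 4 were tested and 0 were called in either study, with medians of -1.16 and -1.05, and Rag2 and Vpreb2 were at 0 in all 16 libraries.

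The plasma cell list had 2 of 7 tested genes lower in Has2_TG, Mzb1 (-4.06) and Igkc (-3.11), and 1 of 6 higher in PH20_TG, Sdc1 (0.90), with medians of -1.01 and 0.12. Of its 7 genes averaging 50 reads or more over the 16 libraries, only Mzb1 and Igkc had the 4 high control libraries highest. Igkc was at 153 to 321 FPKM in the 4 high control libraries and 4.42 to 49.7 FPKM in the other 12. Jchain, which joins secreted IgM and IgA, was at 1.24 to 8.66 FPKM in the 4 and 0 to 4.52 FPKM in the other 12, so its ranges overlapped. MHC class II genes, which B cells share with macrophages and dendritic cells, had 0 of 9 called in Has2_TG (median 0.04) and H2-DMb1 lower (-0.73) in PH20_TG (median -0.87). Has2_WT1 and Has2_WT2 had the highest MHC class II sums of Has2_WT, 2104 and 1848 FPKM, against 545 and 880 FPKM in Has2_WT3 and Has2_WT4. Without the 2 high libraries, 6 of these 9 were higher in Has2_TG, against 5.78% of all genes. Leaving out the highest controls pushes the differences upward, so nothing is read from that number. Signals of the B cell niche included Ltb, a lymphotoxin chain, lower in Has2_TG (-4.12, 1 of 6 called, median -0.13), and its receptor Ltbr, higher in PH20_TG (0.61, 1 of 6 called, median 0.02). Among 5 tested follicular dendritic cell genes, Clu was lower in PH20_TG (-1.06, median -1.06) and 0 were called in Has2_TG (median -0.13).

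T cell genes were lower for 5 of 20 in Has2_TG (median -2.64, with Lat at -3.05 and Cd28 at -2.58) and for 7 of 20 in PH20_TG (median -2.11, with Cd28 at -2.36 and Cd247 at -1.67). Cd28 had 0, 29, 0 and 0 reads in Has2_TG, and nothing is read from these counts against the 3.75% and 3.39% of all genes. Without the high control libraries, where these genes were highest, their medians were -0.02 and -0.15, and nothing is read from that shrinkage. Lymph node stroma genes had Pdpn (1.64) and Lyve1 higher in Has2_TG among 4 tested (median 0.52) and 0 of 5 called in PH20_TG (median -1.55). Macrophage genes were higher for 7 of 12 in Has2_TG (median 0.74, with C1qb at 1.00 and C1qc at 0.83) and 0 of 12 were called in PH20_TG (median -0.35). Of 8 tested dendritic cell genes Cd209a was higher in Has2_TG (0.73, median -0.26) and 0 were called in PH20_TG (median -0.68). Adipocyte genes had 0 of 10 called in either study, with medians of 0.03 and 0.24. Skeletal muscle genes had 0 of 9 called in Has2_TG (median 0.03) and 8 of 9 lower in PH20_TG (median -4.02, with Mylpf at -3.60 and Tnni2 at -4.32). Without PH20_WT1 and PH20_WT3, 7 of 9 were lower, against 2.09% of all genes. In these 14 lists 0 genes passed adjustment by limma, and the part of muscle or macrophage RNA in the B cell results was not tested.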

How the data were processed

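Bulk RNA of iWAT was measured in 16 libraries, 4 per group, grouped by the sample titles. Per the submitters' processing notes, reads were checked with FastQC 0.11.9, aligned to GRCm38 with STAR 2.7.9a and summarised with MultiQC 1.12, and the authors tested them with DESeq2. The authors deposited FPKM per gene with gene length, and these values already carry a scaling between libraries. Whole reads were recovered from FPKM, gene length and library total for 100% of the values (tolerance 0.01), and library depth was 14421692 to 26751729 reads on genes. The 32 members were matched by gene name, and the positions of all 32 were the same in GENCODE M21.

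Each study was tested on its 8 libraries with limma 3.58.1 (R 4.3.3), the moderated two-sided test with a variance trend, on log2(FPKM + 0.1), keeping genes that averaged 50 reads or more. A gene was called at an unadjusted p under 0.05, as in the study's methods, with the Benjamini-Hochberg count over the whole table beside it. Differences of single B cell genes in the main fits are given with their adjusted p. Genes of the other lists, and fits with libraries left out, are given by the log2 difference alone. The difference between the studies used all 16 libraries. Tables and figures were made with Python 3.11.15, numpy 2.4.6, pandas 2.3.3 and matplotlib 3.10.9. The procedure was tested on simulated data. Among 120 pairs of libraries over 12593 genes the chi-square per degree of freedom was 28.7 or more (median 106), so no library was counted as a duplicate.

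Values per library are given for 9 genes that define the lineage, for the 3 B cell genes with the smallest p in each fit and for the 3 with the smallest ratio of highest to lowest library. From each of 14 lists of related genes and other cell types, genes were named from the 2 with the smallest p per study, along with fixed markers, and Rag2 and Vpreb2 were added after their values were seen. The B cell genes, roles and lists were chosen with earlier results of these data known. Alternatives were voom weights on the recovered reads, quantile normalization, median-of-ratios scaling, a fit without the variance trend, a pseudocount of 1, no filter on reads, a filter at a mean FPKM of 1, a joint fit of the 16 libraries, a block for the replicate number, and each library left out in turn. Leaving out the high control libraries together was added after seeing the data. Fits with libraries left out kept the genes that passed the read minimum over the full set of libraries. Same-numbered libraries of a study were not taken as pairs. The values of a single gene of these lists are not reported here.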

Additional observations from a re-analysis of the deposited data

Results flagged for a closer look

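Within each group of 4 libraries, 128 sets of values (32 genes in 4 groups) were searched on the scale of log2(FPKM + 0.1). A set was flagged where 1 library's gap to the nearest other was a larger share of the range than Dixon's critical value. Of these sets, 7 were flagged, where chance gives about 1 in 20, or 6.4. In Has2_TG, Vpreb3 was at 1.57 FPKM in Has2_TG1 and 0 in the other libraries, and Fcer2a (0.117 FPKM) and Cxcr5 (0.0904 FPKM) had reads in Has2_TG2 and were at 0 in the others. Cd72 was at 0 in Has2_TG1, against 0.859 to 1.34 FPKM in the other Has2_TG libraries, and at 0.841 FPKM in PH20_TG4, against 1.06 to 1.10 FPKM in the other PH20_TG libraries. Btla was at 0 in Has2_TG4, against 0.491 to 0.568 FPKM in the others. Fcmr was at 1.14 FPKM in the library labelled PH20_TG1, against 0.276 to 0.348 FPKM in the other PH20_TG libraries. None of the 7 lies in a control group, where high and low libraries came in pairs for most genes. A search for a single distant library could hardly flag such pairs, so it does not describe the spread of the controls. For Vpreb3, Fcer2a and Cxcr5 the other libraries were all at 0, which sets the gap to the whole range.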

How the results depend on the processing

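The number of B cell genes lower in Has2_TG (6) was 3 with no minimum of reads, 3 with no variance trend, 0 with voom weights and 11 with the replicate block. In PH20_TG (9) it was 0 with voom weights and 14 with the replicate block. With each library left out in turn the number was 1 to 20 in the Has2 study, with 1 without Has2_WT1 or Has2_WT2, 20 without Has2_WT3, 19 without Has2_WT4 and 2 or 3 without a Has2_TG library. It was 4 to 20 in the PH20 study, with 4 without PH20_WT3, 6 without PH20_WT1, PH20_TG2 or PH20_TG3, 20 without PH20_WT2 and 17 without PH20_WT4. With a pseudocount of 1 the medians were -1.50 and -1.28, and with a library left out they were -3.67 to -1.40 and -2.92 to -0.946. For the difference between the studies, 1 gene was higher with the replicate block and 0 to 1 with a library left out, in both cases Ly86 (1 without the library labelled PH20_TG1). The replicate numbers share only a number: correlations of same-numbered deviations were -0.008, 0.126, -0.176 and 0.011 in the Has2 study and 0.346, 0.421, -0.033 and -0.042 in the PH20 study, and 3 of 8 numbers correlated best with their own. The other settings kept the counts within 1.5 times. The cause of these shifts was not tested.

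Without the high control libraries (added after seeing the data), the Has2 count was 1 lower and 5 higher with a median of 0.37, the PH20 count was 4 lower with a median of -0.032, and 2 genes were higher in the difference. Signs then turned in the Has2 study for Ighm (0.58), Ighd (0.33), Ms4a1 (0.65), Cd72 (0.25), Fcrl1 (0.76), Cd37 (0.75), Blk (0.37), Btk (0.63), Blnk (1.11), Bank1 (1.11), Ralgps2 (0.55), Tnfrsf13c (0.34), Tnfrsf13b (0.12), Cd40 (0.94), Cd180 (0.46), Pax5 (0.37), Pou2af1 (1.06), Pou2f2 (0.42) and Ciita (0.56). In the PH20 study they turned for Ighm (0.33), Cr2 (0.0062), Cd22 (0.91), Siglecg (0.76), Cd72 (0.66), Fcmr (1.19), Blnk (0.57), Ralgps2 (0.27), Fcrla (0.44), Tnfrsf13c (0.59), Cd40 (0.15), Cxcr5 (0.47), Cd180 (0.036), Pou2f2 (0.10) and Ciita (0.35). With 1 library left out, signs turned in the Has2 study without Has2_WT1 or Has2_WT2 for Ighm (range over all libraries -0.59 to 0.12), Blnk (-0.90 to 0.19) and Cd40 (-0.50 to 0.33), without Has2_WT1 for Bank1 (-1.14 to 0.16), without Has2_TG1 for Ighm and without Has2_TG2 for Cd40. In the PH20 study they turned without PH20_WT1 for Ighm (-0.61 to 0.0034) and Blnk (-1.05 to 0.051). In the 12 low libraries many B cell genes rest on a few reads, so the pseudocount sets their log2 values and differences among these libraries were often not detectable at this depth.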
